A study of Mus musculus with 2 samples.

Results

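The 10 genes described here encode the AP-1 transcription factor and other immediate early proteins. They are the FOS family members Fos, Fosb, Fosl1 and Fosl2, the JUN family members Jun, Junb and Jund, and the immediate early genes Atf3, Egr1 and Ier2. They were picked by name, and all 10 were found among the 23946 genes of the count tables. In the GENCODE M21 annotation of GRCm38, Fos lies on chromosome 12 (85473890 to 85477273, plus strand), Fosb on chromosome 7 (19302696 to 19310051, minus strand) and Jun on chromosome 4 (95049034 to 95052222, minus strand). Junb, Jund and Ier2 all lie on chromosome 8, and all 10 are protein-coding. Their transcripts were counted by scRNA-Seq in CD45+ cells sorted from the hearts of wild-type female C57BL6 mice. In the group labelled TTS, after Takotsubo syndrome, the mice had received isoproterenol (ISO), a β-adrenergic agonist, at 200 mg/kg by i.p. injection 24 hours before harvest. The Control group received vehicle according to the study's methods, although the deposited protocol names the ISO dose for both samples. In each group the cells of 3 hearts, freed with collagenase and gated as live CD45+ cells, were pooled, and 15000 cells were loaded as 1 library. With 1 library per group, no test can be made between the groups, and a difference between treatments cannot be told apart from a difference between libraries. All intervals below are 95% intervals that cover counting error only.

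AP-1 is a dimer of a FOS and a JUN protein, joined through their basic leucine zippers, that binds short DNA elements in the promoters and enhancers of its target genes. Immediate early genes are transcribed within minutes of a stimulus by factors that are already present in the cell, such as serum response factor and CREB, and their mRNAs are short-lived. In cardiac leukocytes they respond to tissue injury and to cytokines, and they also respond to enzymatic digestion of the tissue, which every cell in both libraries went through before its RNA was captured.

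After filtering, 5641 Control and 5437 TTS cells were kept, with medians of 4790 and 8537 unique molecular identifiers (UMIs, each marking 1 captured mRNA molecule) per cell and of 4.11% and 2.02% mitochondrial UMIs. Of the barcodes in the tables, 15 occurred in both libraries. Cells were gated into 9 leukocyte classes by the summed UMIs of marker genes, and each class is named for the cell type its markers resemble. The macrophage class held 1026 Control and 1799 TTS cells, classical monocytes 60 and 1274, patrolling monocytes 64 and 13, neutrophils 94 and 76, dendritic cells 109 and 348, B cells 1911 and 38, T cells 163 and 21, NK cells 363 and 20, and group 2 innate lymphoid cells (ILC2) 155 and 81. Barcodes with markers of more than 1 class, called mixed here, made up 27.6% of Control and 16.5% of TTS cells and were left out of the classes. They held 54.1% of all Jun UMIs in Control and 25.1% in TTS. Cells that were in no class and not mixed, called ungated here, were left out too. Ungated cells made up 2.48% of Control and 16.0% of TTS cells and held 3.15% and 13.7% of all Jun UMIs. The leukocyte marker Ptprc, which encodes CD45, had UMIs in all 9 classes of both libraries. The macrophage class was not the same population in both libraries. Its median level of macrophage markers was 143 UMIs per 10000 in Control and 30.4 in TTS, and its median level of classical monocyte markers was 6.79 and 37.1. In the TTS library, 419 of the 1799 macrophages lay within 1.5 times the gate limit.

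Promoter sequence was matched for 7 of the 10 genes in RefSeq (GRCm38.p6, from 250 bases before to 50 bases after the transcription start). The 4 windows below are shown because they hold letters bound by the families described here, CREB and ATF proteins for TGACGT and EGR proteins for GCGNGGGCG, with the match in capitals. The Fos window lies at chr12:85473814-85473839 on the plus strand, starts its match 66 bases before the start site and overlaps no annotated exon. The Atf3 window lies at chr1:191183334-191183351 on the minus strand, holds the match on the opposite strand to the gene and overlaps an Atf3 exon. The Fosb window, at chr7:19310077-19310105 on the minus strand, overlaps no exon, and the Fosl2 window, at chr5:32136383-32136411 on the plus strand, overlaps a Fosl2 exon.
Fos: ttccgcccagTGACGTaggaagtcca
Atf3: taatagcattACGTCAgc
Fosb: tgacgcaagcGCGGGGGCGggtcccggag
Fosl2: ccggctgcgcGCGGGGGCGgaagggcgcg
The letters TGACGT, on either strand, were found in 2 of the 7 promoters and in 7.51% of 32851 promoters of the same length. GCGNGGGCG was found in 2 of 7 and in 5.55%. The AP-1 element TGACTCA was found in 0 of 7 and in 5.20%, the full CREB element TGACGTCA, which contains TGACGT, in 0 of 7 and in 1.79%, and the CArG box of serum response factor in 0 of 7 and in 1.63%. These counts describe letters in a 300-base window and say nothing of binding or of elements outside the window. Fosl1, Egr1 and Ier2 had no matched promoter and were not searched. The Jund window, chr8:70697489-70697788 on the plus strand, ended before the annotated start of the gene at 70698949.

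In the Control library, Fos, Jun, Atf3 and Egr1 were each higher in all 5 myeloid classes than in B, T and NK cells. Levels were summed per class and expressed as CPM, the UMIs of a gene per 1000000 UMIs of its class. Fos, which encodes the founding FOS subunit, ranged from 3712 CPM (interval 3490 to 3944) in Control neutrophils and 2013 (1982 to 2043) in macrophages down to 198 in B cells and 175 in NK cells. The intervals of the highest and second classes did not overlap, whereas those of B and NK cells did. Atf3, a stress-induced partner and repressor of AP-1, was highest in macrophages at 1057 CPM (1035 to 1079) and lowest in NK cells at 24.5. Egr1, a zinc finger factor, followed the same order at its ends, with 1264 CPM (1240 to 1288) in macrophages and 61.7 in NK cells. Junb, Jund and Ier2 were spread far less over the classes, with the highest class at 4.01, 2.45 and 2.17 times the lowest. ILC2 stood apart from the other lymphoid cells. They had the highest level of Fosb in Control, 764.5 CPM, of Fosl2, 1074 CPM, and of Jund, 1768 CPM. The ILC2 class was also the highest for these 3 genes in TTS. Neutrophils were second for Fosb, at 688 CPM (594 to 792) in Control and 267 (222 to 319) in TTS. These intervals overlapped those of ILC2. For Fosl2 in TTS, ILC2 were at 656 CPM, within the interval of neutrophils (521 to 664).

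**Figure D1:**
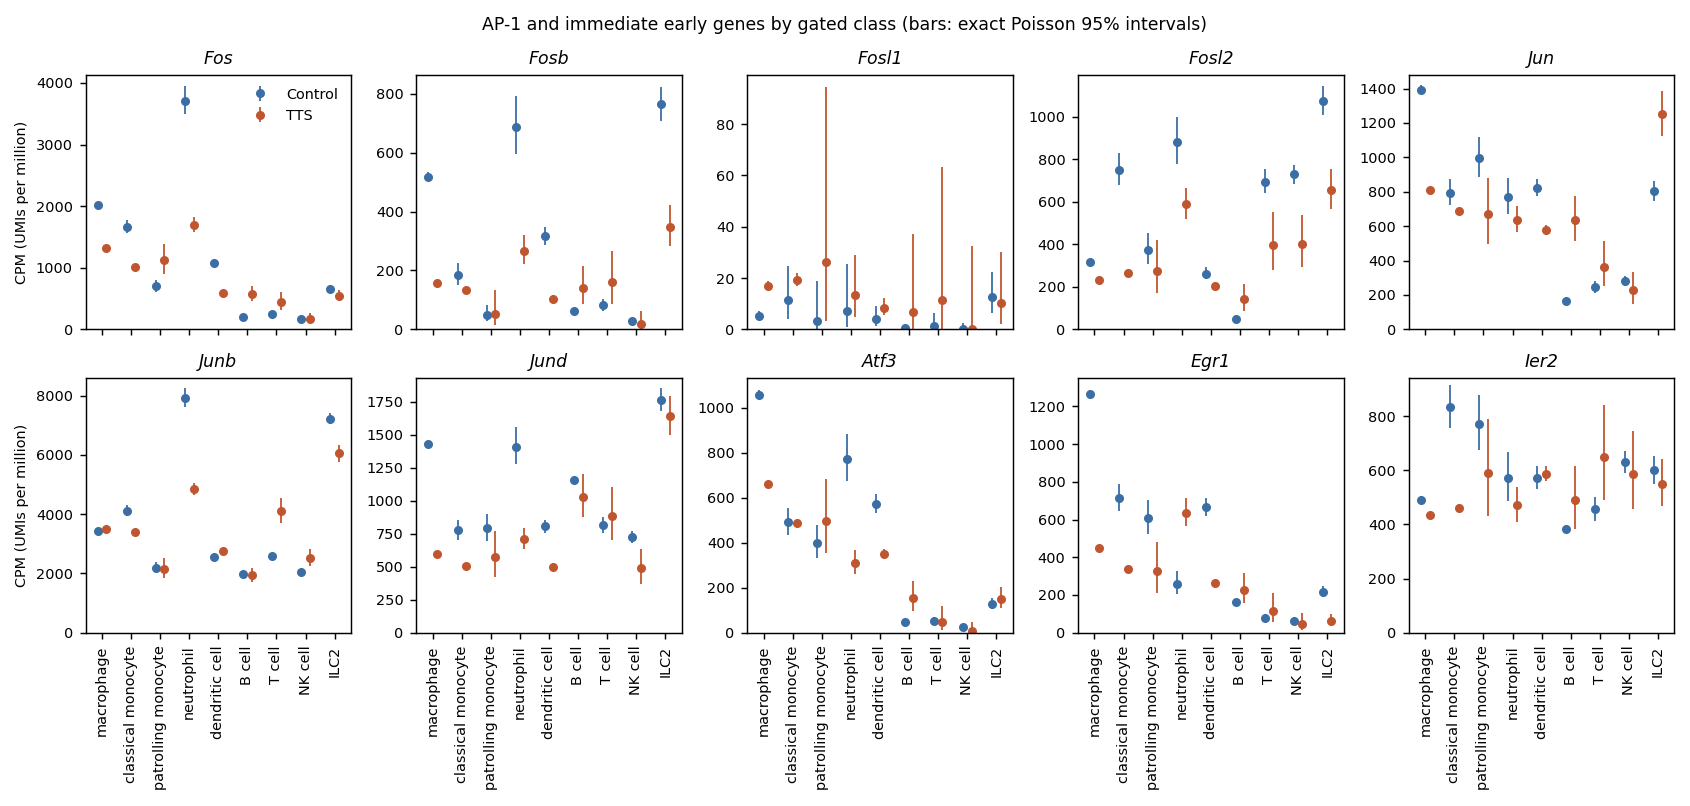
Level of each of the 10 genes in 9 gated leukocyte classes, in CPM, with 1 panel per gene and its own linear axis starting at 0. Points are the summed level of 1 library (blue Control, red TTS) and bars are exact Poisson 95% intervals. Fos, Atf3, Egr1 and Jun are high in myeloid classes and low in B, T and NK cells of the Control library. Fosb, Fosl2 and Jund are highest in ILC2 in both libraries, with overlapping neutrophil intervals for Fosb in both and for Fosl2 in TTS.

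The gap between macrophages and B cells was narrower in TTS for Fos, Fosb, Fosl2, Jun, Atf3 and Egr1. Macrophages had 10.2 times the Fos level of B cells in Control and 2.29 times in TTS, and for Atf3 the values were 21.6 and 4.29. For Jun they were 8.43 and 1.27, for Egr1 7.79 and 1.98, for Fosb 8.31 and 1.13, and for Fosl2 6.32 and 1.64. Junb kept nearly the same ratio, 1.74 and 1.81. For the 6 genes named first, the level was lower in TTS macrophages and higher in the 38 TTS B cells, but the B cell interval of Egr1 (0.49, -0.05 to 0.98) includes 0, and Egr1, Fosl2 and Atf3 were each below 0 in B cells under 1 other setting.

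In macrophages, 8 of the 10 genes were lower in TTS than in Control. Most of the 12761 genes with at least 20 UMIs were lower too, with a median log2 ratio of -0.28. The count by itself therefore does not set the 10 genes apart. The FOS subunit Fosb was at 518 CPM (503 to 534) in Control and 159 (153 to 164) in TTS, a log2 ratio of -1.71 (-1.77 to -1.64). Fos was at 2013 and 1316 CPM, a log2 ratio of -0.61 (-0.64 to -0.58). Fosl2, whose protein FRA-2 has no transactivation domain of the FOS kind, was at 316 and 230.3 CPM (-0.46). The order of the libraries was thus the same for these 3 members of the family, and none of the intervals overlapped.

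Fosl1 went the other way. It encodes FRA-1, the FOS protein that is made later and lasts longer after a stimulus. It was rare in both libraries, with 44 UMIs in Control macrophages and 332 in TTS macrophages, or 5.25 CPM (3.81 to 7.05) against 17.1 (15.3 to 19.0), a log2 ratio of 1.70 (1.24 to 2.19). At a depth of 1000 UMIs per cell, 0.292% of Control and 1.33% of TTS macrophages had a Fosl1 UMI, against 0 of 1907 Control B cells, which allows up to 0.157% of cells with a UMI at this depth. Before thinning the shares were 3.61% and 14.2%. Fosl1 was also higher in TTS classical monocytes, at 19.4 CPM against 11.3 (log2 ratio 0.78, -0.36 to 2.25), and in dendritic cells, at 8.36 against 3.97 (1.08, -0.33 to 2.82), but both intervals include 0, and the Control levels rested on 6 and 5 UMIs. Fewer than 20 Fosl1 UMIs were found in each of the other 6 classes, and they are not compared.

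Of the JUN family, Jund, the subunit that is broadly expressed in resting cells, was at 1428 CPM (1403 to 1454) in Control and 597 (587 to 608) in TTS macrophages, a log2 ratio of -1.26 (-1.29 to -1.22). Jun was at 1392 and 809.8 CPM (-0.78, -0.82 to -0.75). Junb, a weaker activator that can restrain Jun, was at 3448 and 3503 CPM (0.02), and this sign changed with the scaling of the counts and with the gates, over a range of -0.07 to 0.21. Over the whole macrophage class the JUN subunits therefore split, with Jund and Jun lower in TTS and Junb nearly level.

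Among the other immediate early genes, Egr1 was at 1264 CPM in Control and 452 (442 to 461) in TTS macrophages, a log2 ratio of -1.48 (-1.53 to -1.44). Atf3 was at 1057 and 659.7 CPM (-0.68). Ier2, a nuclear protein of the immediate early response, was at 489.6 and 434 CPM (-0.17), and its ratio ranged from -0.27 to 0.01 over other scalings and gates. Egr1 thus differed most of these 3 genes and Ier2 least.

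Counted over the 10 genes in macrophages, 1 was at least 2-fold higher in TTS, beside 8.28% of all 12761 genes with at least 20 UMIs, and 3 were at least 2-fold lower (Fosb, Egr1 and Jund), beside 22.4% of all genes. The median log2 ratio was -0.65 for the 10 genes and -0.28 for all genes. Scaling by the median of gene ratios in place of total UMIs changed neither count. That median was -0.19 in macrophages, -0.18 in classical monocytes, 0.12 in patrolling monocytes, -0.35 in neutrophils, 0.24 in B cells and 0.48 in NK cells, and -0.05 to 0.10 in the other 3 classes, and each ratio given here can be read against it.

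**Figure D2:**
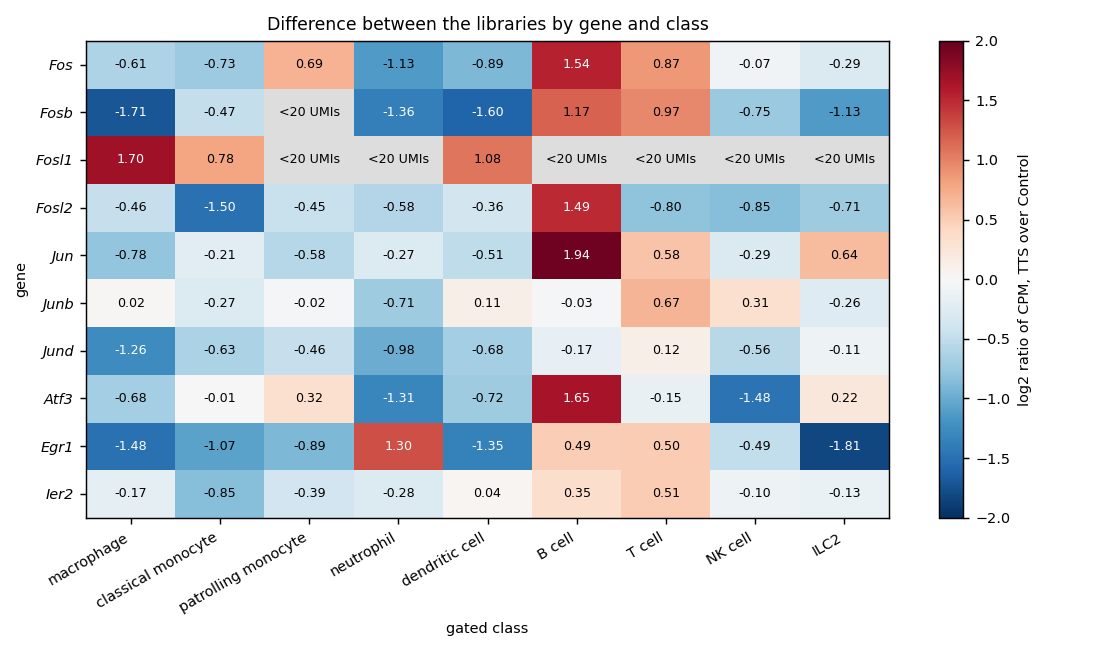
Log2 ratio of CPM, TTS over Control, for each of the 10 genes (rows) in each class (columns), on a color scale from blue (lower in TTS) to red (higher in TTS) that ends at 2 log2 units. Grey cells had fewer than 20 UMIs. Macrophages, classical monocytes, neutrophils and dendritic cells are mostly blue, B cells hold 5 values of at least 1 log2 unit, and Egr1 is red in neutrophils.

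The other myeloid classes resembled macrophages in part. In classical monocytes, 0 of the 10 genes were at least 2-fold higher (13.8% of all genes were) and 2 were at least 2-fold lower (17.9%). These were Fosl2, at 751 CPM (679 to 828) in Control and 266 (257 to 276) in TTS, a log2 ratio of -1.496, and Egr1, at 713 and 339 CPM (-1.07, -1.23 to -0.92). Ier2 differed more in these cells than in macrophages, at 833 and 462 CPM (-0.85). Atf3 was level, at 492 and 489 CPM (-0.01, -0.19 to 0.18). The Control side rested on 60 cells.

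In dendritic cells, Fosl1 was the 1 gene at least 2-fold higher (7.52% of all genes), and Fosb and Egr1 were the 2 at least 2-fold lower (9.63%). Fosb was at 316 and 104 CPM (-1.60) and Egr1 at 665 and 261 CPM (-1.35, -1.49 to -1.21). Junb and Ier2 were close between the libraries, with log2 ratios of 0.11 and 0.04. In patrolling monocytes, of which the TTS library had 13, 8 genes could be compared and 0 passed 2-fold in either direction (8.81% higher and 16.2% lower over all genes). Fos was higher there, at 1126 CPM (901 to 1390) against 698 (606 to 799), the reverse of its order in the other 4 myeloid classes.

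Neutrophils combined the highest Fos level with an Egr1 difference of the opposite sign to the other 4 myeloid classes, although Egr1 in patrolling monocytes reached 0.38 with a looser gate. Fos was at 3712 CPM in Control and 1695 (1577 to 1820) in TTS neutrophils, a log2 ratio of -1.13 (-1.27 to -0.99). Atf3 was at 773 and 311 CPM (-1.31) and Fosb at 688 and 267 CPM (-1.36). Junb was at 7938 and 4856 CPM, a log2 ratio of -0.71 (-0.79 to -0.62), while it was level over the macrophage class. Egr1 was at 259 CPM (203 to 325) in Control and 636 (564 to 714) in TTS, a log2 ratio of 1.297 (0.92 to 1.69). At 1000 UMIs per cell, 17.0% of 94 Control neutrophils and 30.3% of 76 TTS neutrophils had an Egr1 UMI, and the exact intervals, 10.1 to 26.2 and 20.2 to 41.9, overlapped. Before thinning the shares were 25.5% and 60.5%. Of the 9 genes compared, 1 was at least 2-fold higher (21.1% of all genes) and 3 were at least 2-fold lower (13.9%).

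Macrophage transcripts also moved in the neutrophil class. All 9 macrophage markers in the tables had UMIs in both libraries, and their sum was 316 CPM in Control and 607 in TTS, beside 14252 and 5631 in macrophages. Spp1 was at 7.09 CPM in Control and 4059 in TTS neutrophils. In 61 Control and 26 TTS neutrophils, 0 UMIs of the 8 macrophage markers used in the gate were found. In these cells Spp1 was at 11.3 and 193 CPM and Egr1 at 261 and 790.5 CPM (interval of the log2 ratio 1.07 to 2.15). Atf3 was at 867 and 246 CPM (-1.82) and Fos at 3725 and 2125 CPM (-0.81). Spp1 was thus still higher in these TTS neutrophils, and the part of macrophage RNA in the values was not tested.

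Taking the 5 myeloid classes together, 47 of 50 gene-by-class values had enough UMIs, and 38 of them were below 0, as were 56.9% of all gene-by-class values. At least 2-fold higher were 3 values (10.9% of all gene-by-class values) and at least 2-fold lower were 10 (16.9%). Jun, Jund and Fosl2 were below 0 in all 5 classes and Fosb in all 4 that could be compared. Fosl1 was above 0 in all 3. Under other settings the Jun ratio reached 0.24 in neutrophils and the Fosl2 ratio 0.23 in patrolling monocytes.

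Cells of the macrophage class were split by resident and recruited markers, because the 2 libraries differed in this mix. Resident-marker macrophages (Timd4, Lyve1, Folr2 or Cd163 without Ccr2) numbered 442, or 43.1% of the class, in Control and 133, or 7.39%, in TTS, and Ccr2 macrophages without these markers numbered 79 and 1181. Egr1 was lower in TTS within each subset. It was at 1257 and 636 CPM in resident-marker macrophages (log2 ratio -0.98, -1.11 to -0.85), at 1265 and 414 in Ccr2 macrophages (-1.61, -1.71 to -1.51) and at 1268 and 502 in the rest (-1.34). Fosb was also lower in each, with log2 ratios of -1.78, -1.05 and -1.72. Jund was lower by -0.65, -1.27 and -0.999 in the same order.

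The Fos difference was smaller within 2 of the subsets than over the class, and closer to it in the rest. Fos was at 2092 and 1833 CPM in resident-marker macrophages (-0.19) and at 1425 and 1219 in Ccr2 macrophages (-0.23), against -0.51 in the rest and -0.61 for the whole class. For Jun the ratios were -0.33, -0.50 and -0.50 against -0.78. For Junb they were -0.37 (-0.43 to -0.30), -0.11 and -0.02 against 0.02. In resident-marker macrophages Junb was thus lower in TTS by about as much as Jun. Fosl1 was at 5.05 and 15.3 CPM in resident-marker macrophages (1.601, 0.42 to 2.75) and at 9.19 and 17.4 in Ccr2 macrophages, where the interval, -0.14 to 2.25, includes 0. In the rest its ratio was 1.82 (1.13 to 2.57). Of the 10 genes, 1 was at least 2-fold higher in resident-marker macrophages (7.36% of all genes) and 1 was lower (11.5%). In Ccr2 macrophages the counts were 0 (13.2%) and 3 (17.6%), and in the rest 1 (8.32%) and 2 (15%). In Control the Egr1 levels of the 3 subsets lay between 1257 and 1268 CPM, and in TTS between 414 and 636.

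**Figure D3:**
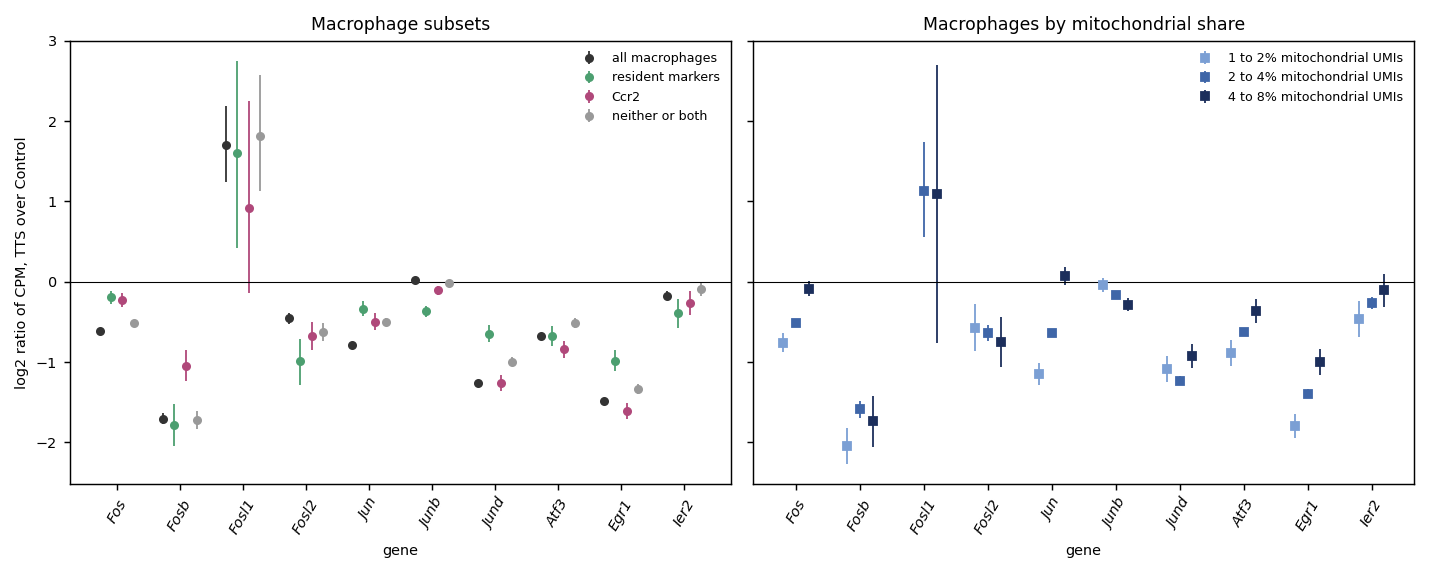
Log2 ratio of CPM, TTS over Control, for the 10 genes in macrophages. Left, all macrophages and 3 marker subsets. Right, macrophages in bins of mitochondrial UMI share with at least 30 cells per library. Bars are 95% counting intervals and the line marks no difference. Egr1, Fosb and Jund lie below 0 in every subset and bin shown, and Fos and Jun reach 0 in the 4 to 8% bin.

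The libraries also differed in the mitochondrial share and the depth of their cells, so macrophages were compared within bins of each. Between 2 and 4% mitochondrial UMIs, where 445 Control and 823 TTS macrophages fell, Egr1 had a log2 ratio of -1.39, Fosb of -1.59, Jund of -1.23 and Fos of -0.52. Between 4 and 8%, with 418 and 93 cells, Egr1 was at 1259.8 and 629.9 CPM, Fosb at 544 and 164 (-1.73) and Jund at 1437 and 759 (-0.92), but Fos was at 2172 and 2044 (-0.09, down to -0.18) and Jun at 1370.2 and 1440.1 (0.07). Over all 5 bins Egr1 had its lowest ratio, -2.33, above 8% and its highest in the 4 to 8% bin, and Jund ranged from -1.23 to -0.47. Over 5 bins of UMIs per cell, Egr1 ranged from -1.92 to -0.84, Jund from -1.46 to -0.59 and Fos from -1.03 to -0.21. Fosb ranged from -1.96 to 0.25, the last value being that of cells under 3000 UMIs, of which TTS had 9. Egr1 and Jund were thus below 0 in every bin of both measures, although the Jund interval included 0 under 1% mitochondrial UMIs (5 Control and 15 TTS cells, -0.99 to 0.06) and under 3000 UMIs (-1.41 to 0.14). The ratios of Fos and of Jun were near 0 in the 4 to 8% bin. Junb, level over the class, was lower in TTS in that bin (-0.28, -0.37 to -0.20).

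Counts per cell gave the same order for most genes. After each cell was thinned to 1000 UMIs, which left out 4 Control B cells and no macrophage or neutrophil, 49.2% of 1026 Control macrophages had an Egr1 UMI (46.1 to 52.3) and 25.5% of 1799 TTS macrophages (23.5 to 27.6). For Fosb the shares were 30.8% and 12.8%, for Jund 62.3% and 42.4%, and for Atf3 46.1% and 34.8%. Fos was closer, at 59.1% (56.0 to 62.1) and 55.6% (53.3 to 58.0), with intervals that overlapped. Junb had a UMI in more TTS macrophages, 84.2% against 75.4%, although its CPM were level. Without thinning, at median depths of 6597 and 8802 UMIs, the Egr1 shares were 76.8% and 66.5%. In B cells of the Control library, 5.19% had an Egr1 UMI and 13.3% a Fos UMI after thinning.

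**Figure D4:**
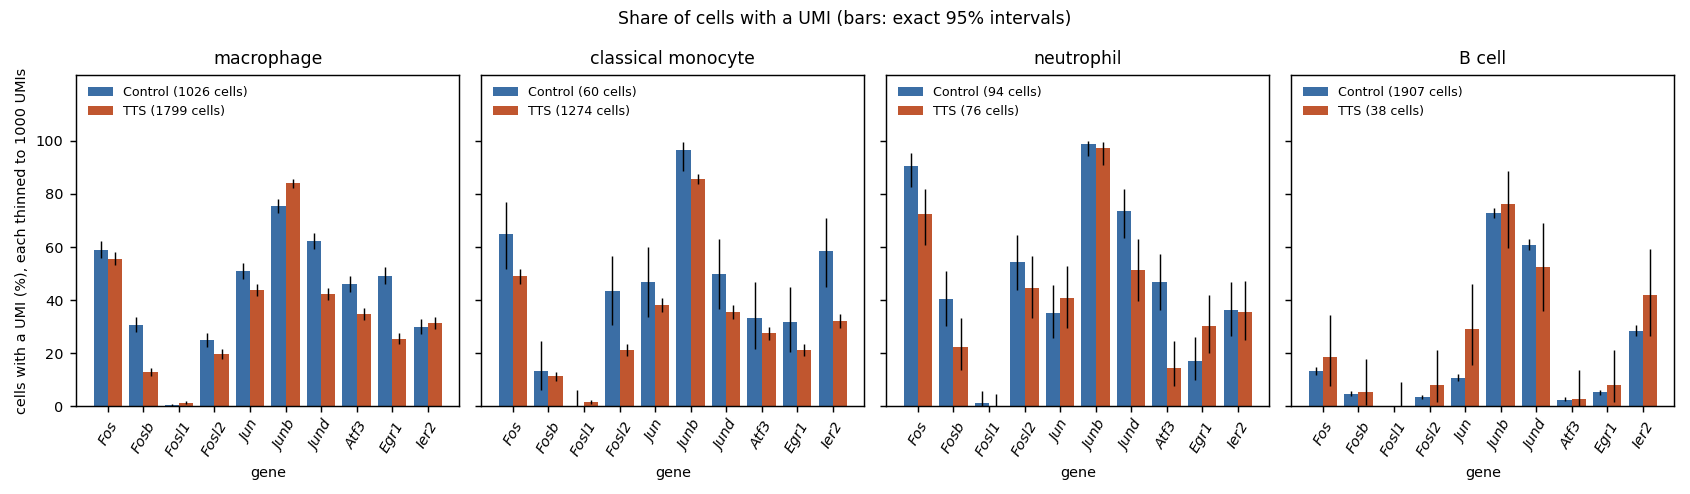
Share of cells with at least 1 UMI of each gene, in percent, after each cell was thinned to 1000 UMIs, in macrophages, classical monocytes, neutrophils and B cells. Bars are shares of cells in Control (blue) and TTS (red), and lines are exact Clopper-Pearson 95% intervals. In macrophages Egr1, Fosb, Jund and Atf3 are lower in TTS and Junb is higher, and in neutrophils Fos and Atf3 are lower and the Egr1 intervals overlap.

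UMIs of several of the genes were often found in 1 cell. At 2000 UMIs per cell, the median Control macrophage had UMIs of 6 of the 10 genes and the median TTS macrophage of 5. The median B cell had 3 in both libraries. Among the 961 Control macrophages, the pair with the highest Spearman correlation was Fos and Jun at 0.50, and among 1797 TTS macrophages it was Fos and Atf3 at 0.32. The medians over the 36 pairs without Fosl1 were 0.25 and 0.13 and the lowest values -0.07 and -0.02, so most pairs were weakly correlated. The pairs with Fosl1, which was rare, ranged from 0.02 to 0.08 in Control and from -0.02 to 0.07 in TTS. These cells share a library and a thinned depth, and the values are descriptions.

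In B cells the values lay on the other side. Of the 9 genes compared, 5 were at least 2-fold higher in TTS, beside 11.4% of all genes, and 0 were at least 2-fold lower, beside 16.3%. Jun was at 165 CPM in Control and 636 (514 to 777) in TTS, a log2 ratio of 1.94 (1.63 to 2.25). Fos was at 198 and 576 CPM (1.54), Atf3 at 48.9 and 154 (1.65), Fosl2 at 50.03 and 141 (1.49) and Fosb at 62.3 and 141 (1.17). Junb and Jund were level, with log2 ratios of -0.03 and -0.17. All 5 higher values rested on few TTS cells. Of 86 Fos UMIs in the 38 TTS B cells, the 4 highest cells held 81.4%, and the 4 highest cells for the gene in question held 57 of 95 Jun UMIs and 87.0% of 23 Atf3 UMIs. After thinning to 1000 UMIs, 18.4% of TTS and 13.3% of Control B cells had a Fos UMI, with overlapping intervals, and 28.9% (15.4 to 45.9) and 10.8% (9.44 to 12.3) had a Jun UMI. Of the 5 genes, Jun had UMIs in the most TTS B cells, 19 of 38. With cells thinned to 1000 UMIs the Fosl2 ratio was -0.305, and with a stricter gate the Atf3 ratio was -0.063.

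Myeloid transcripts were also higher in TTS B cells. Lyz2, which encodes lysozyme of myeloid cells, was at 296 and 904 CPM and Il1b at 149.8 and 1332 CPM. Of 9 macrophage markers, 9 had UMIs in Control B cells and 5 in TTS B cells (C1qc, Emr1, Ms4a7 and Mertk were at 0), with sums of 102 and 120 CPM, and the 12 neutrophil markers summed to 45.5 and 308 CPM. In 1334 Control and 27 TTS B cells, 0 UMIs were found of the 8 macrophage gate markers and of Chi3l3, Vcan, F13a1 and Hp. Ly6c2, Plac8 and the patrolling monocyte markers were not part of this filter, called the myeloid filter here. In these cells Jun was at 136 and 687 CPM (log2 ratio 2.34) and Fos at 174 and 468 (1.43). Lyz2 was still at 141 and 1204 CPM. The part of myeloid RNA in these B cell values was not tested. Under other gates, scalings and filters the Jun ratio stayed between 1.56 and 2.34 and the Fos ratio between 0.14 and 1.66.

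T and NK cells of TTS were few, at 21 and 20. In T cells 0 genes passed 2-fold in either direction (11.6% higher and 18.8% lower over all genes). Junb was at 2573 CPM in Control and 4107 (3694 to 4553) in TTS T cells, a log2 ratio of 0.67. The 4 highest of the 21 TTS T cells held 51.8% of the Junb UMIs. Fos was at 242 and 444 CPM (0.87, 0.34 to 1.37). Fosl2 was lower, at 695 and 398 CPM (-0.80, -1.34 to -0.31). Lyz2 was at 545 and 1843 CPM and Il1b at 124 and 5245 CPM in the same cells. In the 115 Control and 16 TTS T cells that passed the myeloid filter, Lyz2 was at 68.6 and 321 CPM and Il1b at 39.4 and 249.5. Fos was at 235 and 606 CPM (1.37) and Junb at 2721 and 3618 (0.41, 0.19 to 0.62) in these cells. In NK cells, 0 genes were at least 2-fold higher (8.98%) and 1 was lower (27.7%). This was Atf3, for which 1 UMI in TTS stood against 35 in Control, at 8.77 and 24.5 CPM, a log2 ratio of -1.48 with an interval from -6.83 to 1.09. Fosl2 was at 729.6 and 403 CPM (-0.85, -1.31 to -0.43). Lyz2 was at 97.4 and 4008 CPM in NK cells. In the 260 Control and 10 TTS NK cells that passed the myeloid filter, Lyz2 was at 98.0 and 128 CPM. However, Spp1 was at 14.9 and 914 CPM and Il1b at 46.5 and 170.0 in these cells. Their Fosl2 ratio was -0.33 (-0.96 to 0.23).

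ILC2 were the lymphoid class with the most TTS cells, and their AP-1 genes split. Fosb was at 764.5 CPM (708 to 824) in Control and 349 (284 to 423) in TTS, a log2 ratio of -1.13 (-1.45 to -0.83). Egr1 was at 216 and 61.5 CPM (-1.81, -2.60 to -1.12), resting on 18 TTS UMIs. Fosl2 was at 1074 and 656 CPM (-0.71). Jun was higher in TTS, at 1251 CPM (1126 to 1386) against 803 (745 to 864), a log2 ratio of 0.64 (0.45 to 0.82). ILC2 thus had the highest Jun of all classes in that library. Under other settings this Jun ratio ranged from 0.14 to 0.74. The 4 highest cells held 28.2% of the Jun UMIs of 155 Control ILC2 and 35.5% of those of 81 TTS ILC2. Of the 9 genes compared, 0 were at least 2-fold higher (5.97% of all genes) and 2 were at least 2-fold lower (8.41%). Macrophage markers were lower in TTS ILC2, at 37.6 CPM against 81.6, Lyz2 was at 164 against 135 CPM, and Il1b was higher, at 130 against 57.8. In the 98 and 66 ILC2 that passed the myeloid filter, Fosb had a log2 ratio of -1.20, Egr1 of -1.58 and Jun of 0.72. Lyz2 was at 70.6 and 167 CPM and Il1b at 32.6 and 130 in these cells. Spp1 was at 0 in these Control and at 105 CPM in these TTS ILC2.

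Over the 4 lymphoid classes, 36 of 40 values had enough UMIs, with 17 above and 19 below 0 (53.8% of all values were below 0). At least 2-fold higher were 5 (9.71% of all values), all in B cells, and at least 2-fold lower were 3 (18%). Of the 9 genes compared in at least 8 of the 9 classes, 5 were at least 2-fold higher in 1 class and lower in another, as were 10.1% of the 3418 genes compared in as many classes.

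Over all kept cells, which weigh the classes by their UMIs, Fosl1 was the 1 gene at least 2-fold higher (6.97% of all genes), and Fosb and Jund were the 2 at least 2-fold lower (31.5%). Fos was at 1321 and 1156 CPM (-0.19) and Atf3 at 625 and 559 (-0.16), both closer to 0 than in macrophages. B cells, with little of either transcript, were 1911 of the 5641 Control cells. In the mixed barcodes, 1 gene was at least 2-fold higher (6.39%) and 1 lower (18.8%), and in ungated cells the counts were 0 (9.56%) and 4 (24.5%). Fosb was lower in TTS in both, at 396 and 191 CPM in mixed barcodes and 394 and 153 in ungated cells.

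The wider pathway was described with 5 gene lists. Among genes that AP-1 is known to control, 8 of 15 were at least 2-fold higher in TTS macrophages (8.28% of all genes) and 2 were at least 2-fold lower (22.4%), with a median log2 ratio of 1.30. Spp1, which encodes osteopontin, was at 10.5 and 6616 CPM, a log2 ratio of 9.30. Timp1, a metalloproteinase inhibitor, was at 2.27 and 164 CPM (6.18), and Vegfa, the angiogenic growth factor, at 9.54 and 109.7 CPM (3.52). The collagenase gene Mmp13 went the other way, at 153 and 12.3 CPM (-3.63). Over the macrophage class the targets were thus higher on balance, while the AP-1 transcripts other than Fosl1 and Junb were lower. The class was not the same mix of cells in both libraries. Il1b, a gene of this list, had a log2 ratio of 1.48 over the class. Its ratio was 0.10 in resident-marker macrophages, 1.04 in Ccr2 macrophages and 1.13 in the rest. No other target is given here within these subsets, and the part of the mix was not tested. The list was chosen with earlier results of these data known, and it is no independent evidence of a direction.

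The counts of the next 4 lists stand beside 8.28% of all genes at least 2-fold higher and 22.4% lower in macrophages, and beside an all-gene median of -0.28. Of 30 other immediate early and feedback genes, 5 were at least 2-fold higher in TTS macrophages and 3 lower, with a median of -0.16. Of 16 other basic leucine zipper partners of AP-1, 0 were higher and 3 lower (median -0.27), among them Batf2 at 5.61 and 1.34 CPM (-2.07). Of 14 upstream kinases and partners of serum response factor, 0 were higher and 2 lower (median -0.33). Of 11 heat shock genes that tissue digestion is known to induce, 0 were higher and 5 lower (median -0.61), and the inducible chaperone Hspa1b was at 1384 CPM in Control and 245 in TTS macrophages (-2.50). The heat shock genes differed in direction among the other classes. In classical monocytes 4 of 11 were at least 2-fold higher in TTS (13.8% of all genes) and 1 lower (17.9%), with a median of 0.60. List medians were 0.20 in dendritic cells, 0.04 in patrolling monocytes, 0.13 in T cells and 0.17 in ILC2. The neutrophil and B cell values that follow have the limits given above, 38 TTS B cells and myeloid transcripts in both classes. In neutrophils 8 of 9 were at least 2-fold higher in TTS (21.1% of all genes, list median 1.78), and in B cells 6 of 11 were (11.4% of all genes), with Hspa1a at 39.1 and 515 CPM (3.72). In NK cells 2 of 10 were higher (8.98% of all genes) and 4 lower (27.7%), with a median of -0.51 and Hspa1b at 200.4 and 35.1 CPM (-2.51).

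**Figure D5:**
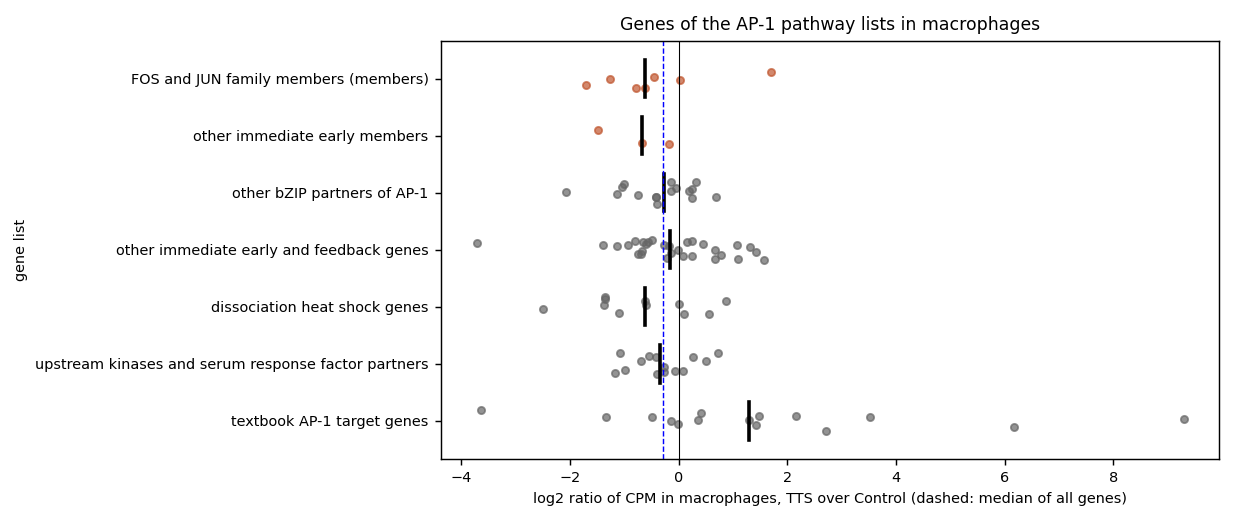
Log2 ratio of CPM in macrophages, TTS over Control, for each gene of 7 lists with at least 20 UMIs (points, with vertical jitter only to separate them). Thick bars are list medians, the thin line marks no difference and the dashed line is the median of all genes, -0.28. The 10 AP-1 and immediate early genes (red) and the heat shock genes lie mostly to the left, and the AP-1 target genes reach 9.30.

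The genes whose levels most resembled each member were sought among 11429 genes, by Pearson's correlation of log2(CPM + 1) over the 18 class-by-library values, which share libraries and depth. For Fos these were Cebpd at 0.93, Zfp36 at 0.92 and Rasgrp4 at 0.91. For Atf3 they were Adam15 at 0.93, Cebpd at 0.91 and Fos at 0.91, and for Egr1 they were Grn at 0.90, Marcks at 0.89 and Plxnb2 at 0.89. Fosl1 was most like Vill at 0.88, Hk2 at 0.85 and Kif13a at 0.85. These Fosl1 values include classes with too few UMIs to compare. The highest, 26.2 CPM in TTS patrolling monocytes, was 2 UMIs, and NK cells had 0. Junb was most like Furin at 0.85. Jun was most like Mctp1 at 0.83, Fosb like Adam19 at 0.81, Fosl2 like Tnfaip3 at 0.82, Jund like Itpr2 at 0.85 and Ier2 like Sept9 at 0.76. Among the members themselves, Fos and Atf3 were the closest pair, followed by Atf3 and Egr1 at 0.86.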

How the data were processed

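The deposited values are raw UMI counts per gene and cell barcode, without normalization, which the authors made by extracting barcodes and UMIs with UMI-tools 1.0.0, aligning reads to mm10 with STAR 2.7.3a and counting with featureCounts 1.6.4 of Subread. The tools and versions are those of the submitters' processing notes, and the annotation release is not given in the sources used here. UMIs count molecules, so amplification does not enter the levels, and capture at the 3′ end leaves transcript length out of them.

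Cells with over 500 and under 6000 genes and under 25% mitochondrial UMIs were kept, as in the study's methods. The library totals before filtering were 47382455 UMIs in Control and 58495112 in TTS. Classes were gated on marker UMIs per 10000, with at least 2 marker UMIs. The limits were 10 for macrophages and B cells, 20 for classical monocytes and 5 for patrolling monocytes, dendritic cells and ILC2. They were 500 for neutrophils, 3 for T cells and 30 for NK cells. No second class was allowed, at the same limits except 40 for neutrophil markers (monocyte markers did not count as one). Cells with 40 to 500 neutrophil marker UMIs per 10000 were thus in no class. They were mixed if they reached another limit and ungated otherwise, even at the monocyte limits. Lymphoid classes were capped at under 5 myeloid marker UMIs per 10000. The limits, the cap and the choice of markers within a longer list were made after the marker distributions had been seen. The 10 genes and all gene lists were chosen with earlier results of these data known. The genes named are the 10 members, per class the 3 genes of the lists with the largest ratio each way among those with at least 50 UMIs (not all are printed), and for each member the genes most like it among those with at least 100 UMIs.

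UMIs were summed per class and library and compared as CPM, for genes with at least 20 UMIs in both libraries together. Poisson and Clopper-Pearson intervals are exact, and intervals of ratios are exact conditional on the summed count, all at 95%. The ratio step was tested on simulated counts. A count of 0 was taken to allow up to 3. Python 3.11.15, numpy 2.4.6, scipy 1.17.1, pandas 2.3.3 and matplotlib 3.10.9 were used, with Scrublet as run by scanpy 1.11.5. Scrublet scores were used only in an alternative that left out 255 Control and 236 TTS barcodes, at the expected shares of doublets. In another, free RNA, estimated at 0.900% of UMIs in Control and 2.53% in TTS, was subtracted. Further alternatives changed the scaling, the weight of cells, the gates, the cell filters, the depth and the size of the fold.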

Additional observations from a re-analysis of the deposited data

Results flagged for a closer look

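For 5 of the 9 genes compared in at least 8 classes, beside 10.1% of all 3418 such genes, the log2 ratio of TTS over Control was at least 1 in 1 class and at most -1 in another, with neither difference replicated and the difference between the classes not tested. Fos was higher in TTS B cells (1.54) and lower in TTS neutrophils (-1.13). Fosb was higher in B cells (1.17) and lower in macrophages (-1.71). Fosl2, whose product FRA-2 pairs with JUN proteins, was higher in B cells (1.49) and lower in classical monocytes (-1.496). Atf3 was higher in B cells (1.65) and lower in NK cells (-1.48), the latter from 1 TTS UMI. Egr1 was higher in neutrophils (1.297) and lower in ILC2 (-1.81). In 4 of the 5 genes the higher value came from the same 38 TTS B cells. The 4 highest cells for each gene held 81.4% of the Fos, 85.7% of the Fosb, 87.0% of the Atf3 and 52.4% of the Fosl2 UMIs of this class, and Lyz2 was at 296 CPM in Control and 904 CPM in TTS B cells. The part of these cells and of myeloid RNA in the values was not tested.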

How the results depend on the processing

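No paired analysis was possible because each group is 1 library. The 83 log2 ratios of gene and class were recomputed under 13 alternatives, and 1021 of 1076 values kept the sign of the value reported. For the 21 ratios of at least 2-fold, 267 of 272 did. The other 5 were Fosl2 in B cells with cells thinned to 1000 UMIs (-0.305), Atf3 in B cells with a stricter gate (-0.0629), and Atf3 in NK cells with a looser gate (1.49), with barcodes of 2 classes kept (2.53) and with thinned cells (1.01). The cause was not tested.

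With a limit of 1.5-fold in place of 2-fold, the genes lower in macrophages went from 3 to 6, the myeloid values from 3 to 5 higher and from 10 to 22 lower, and the lymphoid values from 5 to 9 higher and from 3 to 7 lower. A lower limit can only add values. The shares of all genes given above are for 2-fold and the settings first reported. They were not computed for 1.5-fold or for the alternatives, so the counts in this paragraph have no such share beside them. The lymphoid values at least 2-fold higher were 3 with a stricter gate and 11 with barcodes of 2 classes kept. They were 8 with the myeloid filter, an alternative added after the data were seen. Those at least 2-fold lower were 6 with scaling by the median of ratios and 5 with a stricter gate. In macrophages 1 gene was higher and 3 were lower under every other alternative. Depth limits Fosl1 in most classes and all genes in the 13 to 38 TTS cells of the patrolling monocyte, B, T and NK classes.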
